A study of Mus musculus with 7 samples.

Results

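Fibroblast growth factor (FGF) transcripts were followed as 10 genes: the ligands Fgf7, Fgf9, Fgf10 and Fgf18, the receptors Fgfr1, Fgfr2, Fgfr3 and Fgfr4, and the ETS transcription factors Etv4 and Etv5. They were chosen by gene symbol, all 10 were found among the 27138 features of the count table, and all 10 had enough reads to be among the 16910 features tested. The samples were pancreas from mouse embryos at E15.5, 3 cKO and 4 WT, 1 library per independent animal. The cKO embryos carried Pdx1Cre and mLINC00673fl/fl, floxed alleles of the gene 2610035D17Rik, the mouse counterpart of human LINC00673, a long non-coding RNA. The WT embryos carried the same mLINC00673fl/fl alleles and no Cre, so the deletion and the presence of Cre cannot be told apart. Pdx1Cre is active in the pancreatic epithelium and not in the mesenchyme around it, whereas the libraries were made from whole pancreas. The sources used here give neither strain nor sex.

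FGFs are secreted proteins that bind receptor tyrosine kinases together with heparan sulfate and switch on the Ras and ERK kinase cascade. In the developing pancreas FGF10 from the mesenchyme acts on the FGFR2 of the epithelium and keeps progenitors dividing. Etv4 and Etv5 are transcribed in response to ERK and serve as readouts of FGF signalling in many embryonic organs.

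Total counts were 17028268 to 17757922 in the cKO libraries and 14883918 to 17767373 in the WT libraries. The targeted gene 2610035D17Rik had 2.01, 3.37 and 2.26 CPM, the read count relative to the TMM-scaled library total, in cKO replicates 1 to 3, against 9.07, 8.75, 7.92 and 8.82 CPM in WT replicates 1 to 4, a log2 fold change of −1.76 (SE 0.215, edgeR adjusted p = 0.0902). Of the libraries, cKO replicate 1 and WT replicate 4 stood apart by 13 liver genes, whose summed level was 1671 CPM and 985 CPM, against 80.6 to 148 CPM in the other 5. The libraries also differed in 14 neuron and Schwann cell markers, which summed to 1082, 265.7 and 279.6 CPM in cKO replicates 1 to 3. In WT replicates 1 to 4 these markers summed to 899.1, 239.3, 746.5 and 441.6 CPM. The 20 pancreatic epithelium markers were detected in both groups and summed to 7874 to 9530 CPM in cKO and 8109 to 13230 CPM in WT. cKO replicate 1 also differed by transcript length. Its median log2 deviation from the mean of all libraries was 0.19 for the 3493 protein-coding genes with a longest transcript under 2000 bases and −0.16 for the 5160 genes of 4000 bases and over, and the other 6 libraries lay between −0.071 and 0.085. For the liver genes and transcript length, cKO replicate 1 and WT replicate 4 are left out in turn below where a value rests on them.

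Ligands, receptors and effectors lay at different levels, and cKO and WT pancreas had the same order of group means within each role. Per kilobase of exon, the median over the 7 libraries was 16.1 CPM for Fgfr1, the receptor found in mesenchyme of many organs, and 9.98 CPM for Etv5. Fgfr4, Fgfr2 and Fgfr3 followed at 7.35, 6.89 and 5.89 CPM per kb, with ranges over the libraries that overlapped from each to the next. Fgf18, at 3.59 CPM per kb, was the highest of the 4 ligands, and its range overlapped that of Fgfr3. Etv4 at 1.53 and Fgf10 at 1.41 CPM per kb overlapped each other. Fgf9 at 0.795 and Fgf7 at 0.237 CPM per kb were the lowest, with ranges that overlapped, and Fgf9 was above Fgf7 in 7 of 7 libraries. With the longest coding transcript in place of the union of exons, Fgfr2 moved up to the second place at 16.5 CPM per kb and Fgfr4 down to the fifth place at 7.83. Reads cannot be assigned to splice forms in a table of counts per gene, so the epithelial and mesenchymal forms of the receptors were not separated.

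**Figure D1:**
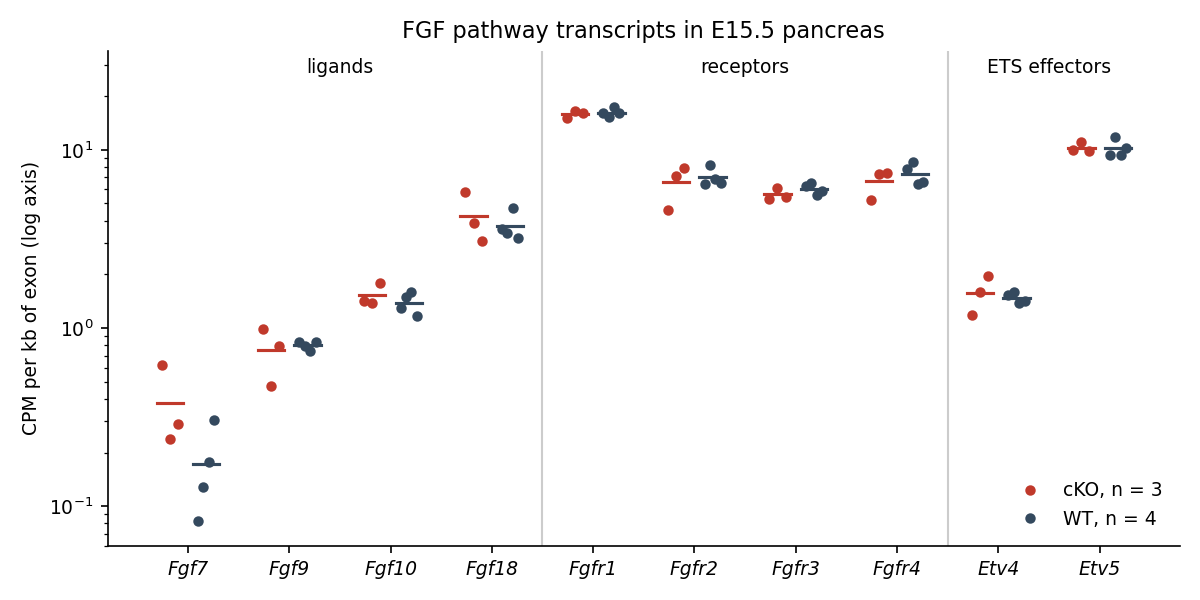
Level of each gene in CPM per kb of exon (log axis), with 1 point per library, cKO (n = 3) left of WT (n = 4) and a bar at each group mean. Receptors and Etv5 lie above the ligands Fgf7, Fgf9 and Fgf10, and the cKO and WT points of every gene overlap.

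No member passed the test of cKO against WT pancreas over all genes. With edgeR's quasi-likelihood test and Benjamini-Hochberg adjustment 0 of 10 passed an adjusted p of 0.05, each with an adjusted p of 0.9999, beside 0.00591% of all tested features. DESeq2 also called 0 of 10, beside 0.0771% of features, and limma-voom 0 of 10, beside 0.00591%. At an unadjusted p under 0.05, 1 of 10 was listed, Fgf7, beside 1.38% of all tested features. The groups overlapped for all 10. Over all tested features 2.72% did not overlap (1.3% higher and 1.43% lower in cKO), so overlap in all 10 genes is near the share over all features. In the fit 5 members were higher and 5 lower in cKO, with a median log2 fold change of −0.0029, against −0.013 over all tested features. A missed threshold does not show that levels were equal, and the intervals below give the differences these libraries leave room for. In whole pancreas, fewer cells of a type and less RNA per cell cannot be told apart.

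**Figure D2:**
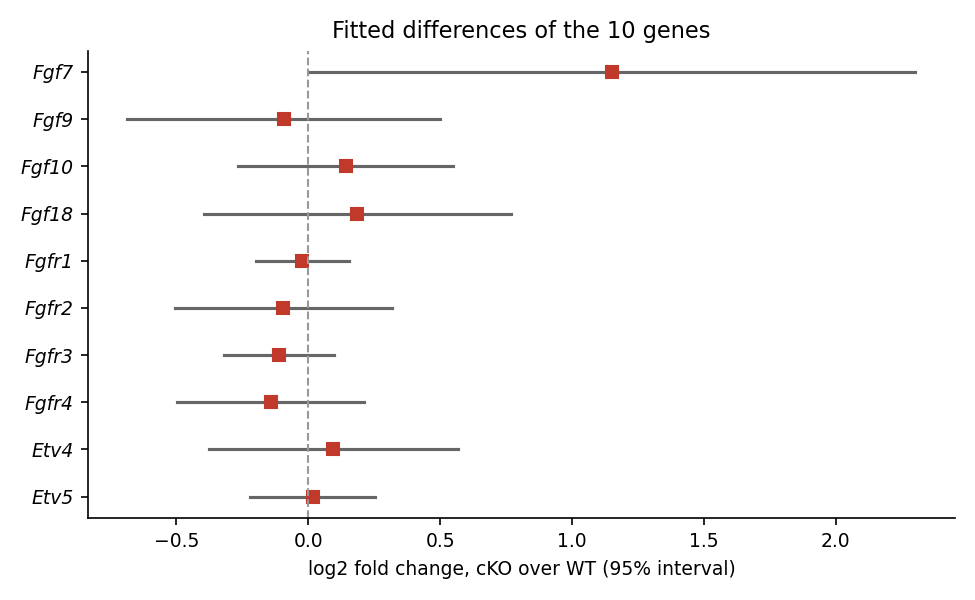
Fitted log2 fold change of each gene, cKO over WT, with its 95% interval from edgeR (3 cKO and 4 WT libraries). The intervals of 9 genes include 0 and that of Fgf7 runs from 0.0034 to 2.30, while the narrowest belong to Fgfr1, Fgfr3 and Etv5.

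Among the ligands, Fgf10 and Fgf7 are relatives that both bind the epithelial form of FGFR2. Fgf10 had 6.49, 6.33 and 8.28 CPM in cKO replicates 1 to 3, against 5.99, 6.85, 7.29 and 5.36 CPM in WT replicates 1 to 4. Of the cKO libraries 2 lay within the WT range and cKO replicate 3 above it. The fitted level in cKO was 110% of that in WT (95% interval 83.1% to 146%, log2 fold change 0.14, SE 0.181). The promoter windows of Fgf7 and Fgf10, from 250 bases before to 50 after the RefSeq start on GRCm38.p6, are shown to set the ligand pair side by side. These are chr2:126034408-126034707 for Fgf7 and chr13:118714449-118714748 for Fgf10, both on the plus strand, written 5′ to 3′ with GGGCGG (the GC box) and CCAAT in capitals where found on either strand.
Fgf7: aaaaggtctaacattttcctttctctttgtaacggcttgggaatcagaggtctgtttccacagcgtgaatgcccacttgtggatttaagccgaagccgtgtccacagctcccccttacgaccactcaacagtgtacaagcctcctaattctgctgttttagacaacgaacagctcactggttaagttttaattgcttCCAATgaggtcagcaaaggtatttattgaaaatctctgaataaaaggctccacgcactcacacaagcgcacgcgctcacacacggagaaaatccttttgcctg
Fgf10: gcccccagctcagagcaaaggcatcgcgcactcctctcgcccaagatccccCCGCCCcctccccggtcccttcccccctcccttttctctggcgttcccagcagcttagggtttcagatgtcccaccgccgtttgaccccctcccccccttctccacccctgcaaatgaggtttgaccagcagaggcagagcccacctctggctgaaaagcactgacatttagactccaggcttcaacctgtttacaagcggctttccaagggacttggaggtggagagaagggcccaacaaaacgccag
The Fgf7 window held 45.7% G and C with 1 CCAAT and 0 GGGCGG, and the Fgf10 window 60.7% with 1 GGGCGG and 0 CCAAT. Of all 32851 RefSeq windows of this length, 35.7% held GGGCGG and 37.4% CCAAT.

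Fgf7, also known as keratinocyte growth factor, was the least abundant member and the most variable. It had 34, 13 and 17 counts in cKO replicates 1 to 3, or 2.01, 0.769 and 0.938 CPM, against 5, 7, 10 and 14 counts in WT replicates 1 to 4, or 0.270, 0.417, 0.578 and 0.988 CPM. Every cKO library was above WT replicates 1 to 3, and WT replicate 4 was above cKO replicates 2 and 3. The exact 95% Poisson interval, which covers counting error only, was 23.5 to 47.5 counts in cKO replicate 1 and 7.65 to 23.5 in WT replicate 4. The log2 fold change was 1.15 (SE 0.508, 95% interval 0.0034 to 2.30, unadjusted p = 0.0495), and the exact 2-sided permutation test over the 35 divisions of the libraries gave p = 0.143. It was 0.631 without cKO replicate 1, 1.53 without WT replicate 4 and 1.01 without both, with an adjusted p of at least 0.999 in these 3 fits. The highest library of each group for Fgf7, cKO replicate 1 and WT replicate 4, was also the highest of its group for liver genes, with a mean log2 CPM of 5.27 and 4.51 against 0.96 to 1.93 in the other 5. All 13 liver genes had a positive log2 fold change in the cKO fit. None was at 0 counts in all libraries, and 0 of them were called, beside 0.00591% of all tested features. The part of that tissue in the Fgf7 counts was not tested.

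**Figure D3:**
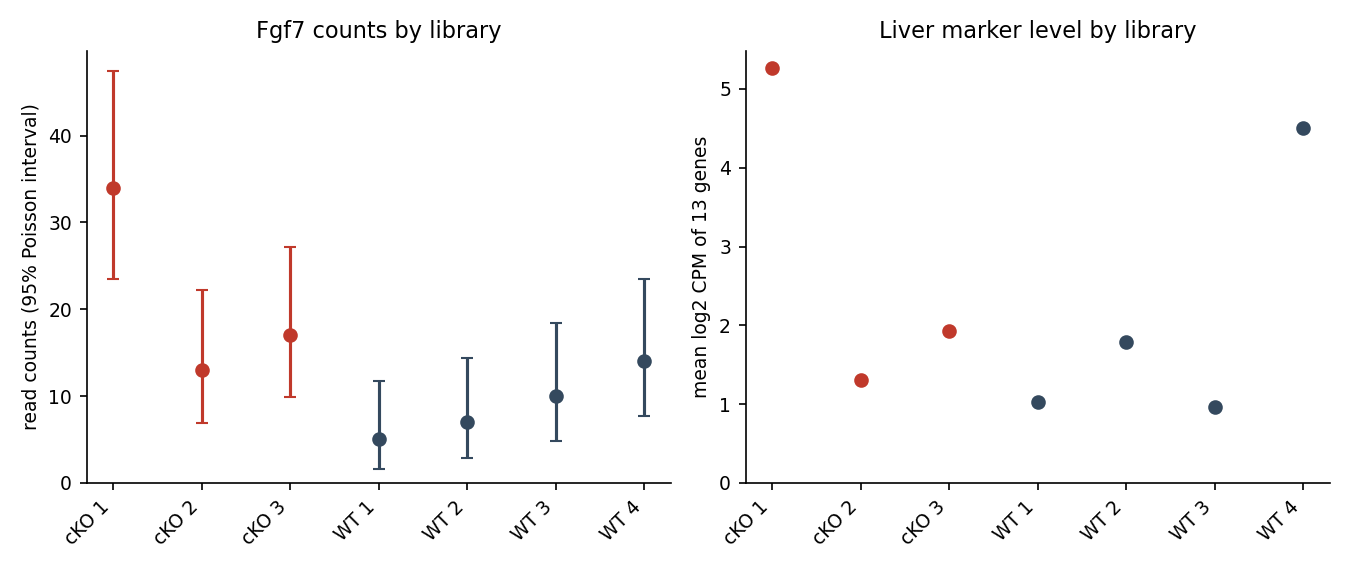
Left, Fgf7 read counts per library with exact 95% Poisson intervals; right, mean log2 CPM of 13 liver marker genes in the same libraries, cKO left of WT. cKO replicate 1 with 34 counts and WT replicate 4 with 14 counts are the highest of their groups in both panels.

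Fgf9 and Fgf18 mainly bind the mesenchymal splice forms of the receptors. Fgf9 had 4.60, 2.19 and 3.70 CPM in cKO replicates 1 to 3, against 3.88, 3.69, 3.47 and 3.88 CPM in WT replicates 1 to 4. The cKO libraries spread on both sides of a narrow WT range, with a coefficient of variation of 34.9% against 5.28% in WT, where counting error alone gives 12.7%. The log2 fold change was −0.093 (SE 0.262) and turned to 0.146 without cKO replicate 2. Fgf18 had 6.91, 4.61 and 3.64 CPM in cKO replicates 1 to 3, against 4.26, 4.05, 5.61 and 3.81 CPM in WT replicates 1 to 4. cKO replicate 1 was the highest and cKO replicate 3 the lowest of all 7 libraries. Its log2 fold change was 0.19 (SE 0.256) and −0.101 without cKO replicate 1. Among the 4 ligands Fgf18 made up 60.8% ± 8.04 of the summed transcripts per kb in cKO and 61.0% ± 3.31 in WT (SD, n = 3 and 4), and Fgf7 5.27% ± 1.56 and 2.90% ± 1.80.

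Of the receptors, Fgfr1 varied least between libraries. It had 150, 164 and 159 CPM in cKO replicates 1 to 3, against 159, 150, 172 and 159 CPM in WT replicates 1 to 4. The fitted level in cKO was 98.5% of that in WT (95% interval 87.1% to 111%, log2 fold change −0.022, SE 0.0781), so a change of Fgfr1 in whole pancreas by more than these bounds lies outside the interval. Fgfr3, which is best known for restraining bone growth, had 37.8, 43.8 and 39.1 CPM in cKO replicates 1 to 3, against 44.7, 46.9, 39.9 and 42.2 CPM in WT replicates 1 to 4. Of the cKO libraries 2 lay below the WT range, and the fitted level was 92.6% of that in WT (95% interval 80.1% to 107%). Fgfr3 was lower in the cKO fit in all 16 alternative settings, with log2 fold changes between −0.18 and −0.063 and no call in any of them.

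Fgfr2, the receptor of FGF7 and FGF10 in its epithelial form, had 47.6, 74.1 and 81.7 CPM in cKO replicates 1 to 3, against 66.7, 84.8, 71.2 and 66.9 CPM in WT replicates 1 to 4. cKO replicate 1 was below every other library, and cKO replicates 2 and 3 lay within the WT range. The log2 fold change was −0.094 (SE 0.18, 95% interval −0.51 to 0.32) and turned to 0.111 without cKO replicate 1. Fgfr4 had 18.6, 26.0 and 26.3 CPM in cKO replicates 1 to 3, against 27.8, 30.4, 22.8 and 23.3 CPM in WT replicates 1 to 4. It was again lowest in cKO replicate 1, and its log2 fold change of −0.14 (SE 0.157) became 0.0084 without that library. The longest coding transcripts of Fgfr1, Fgfr2 and Fgfr3 are 5041, 4311 and 4245 bases, in the length class that was low in cKO replicate 1, and that of Fgfr4 is 3324 bases. Fgf10, with 4114 bases, was not low in that library, and Fgf18, the shortest with 1086, was high in it. Etv4, with 2395 bases, was lowest in it, Fgf7 with 2672 and Fgf9 with 3593 were highest, and Etv5 with 3975 was neither. These and Fgfr4 fall in the class of 2000 to under 4000 bases, whose median log2 deviation in cKO replicate 1 was 0.032. The part of transcript length in these values was not tested.

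The promoter windows of Fgfr2, the receptor of FGF7 and FGF10, and of Fgfr4 are shown in the same notation, as receptor windows that differ in base composition. They lie at chr7:130266759-130267058 on the minus strand for Fgfr2 and chr13:55152568-55152867 on the plus strand for Fgfr4, on GRCm38.p6.
Fgfr2: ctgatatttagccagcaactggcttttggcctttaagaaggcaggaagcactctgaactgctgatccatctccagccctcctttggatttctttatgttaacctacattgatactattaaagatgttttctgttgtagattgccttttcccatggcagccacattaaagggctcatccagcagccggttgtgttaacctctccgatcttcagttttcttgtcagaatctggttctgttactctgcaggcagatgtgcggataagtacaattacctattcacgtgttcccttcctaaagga
Fgfr4: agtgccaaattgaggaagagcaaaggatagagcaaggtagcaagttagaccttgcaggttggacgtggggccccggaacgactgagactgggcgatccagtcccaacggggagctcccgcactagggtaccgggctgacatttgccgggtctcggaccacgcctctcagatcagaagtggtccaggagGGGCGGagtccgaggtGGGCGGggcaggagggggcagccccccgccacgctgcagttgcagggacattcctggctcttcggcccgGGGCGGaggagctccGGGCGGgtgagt
The Fgfr2 window held 43.7% G and C with 0 GGGCGG and 0 CCAAT, and the Fgfr4 window 65.3% with 4 GGGCGG and 0 CCAAT. RefSeq windows were matched for 8 of the 10 members, in 10 windows, since Fgfr3 and Etv5 have 2 starts each. In these 10 windows TATAAA and CCGGAAG, an ETS-type sequence, were found on neither strand, where 13.6% and 8.86% of all windows hold them.

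The receptor makeup of the groups overlapped. Fgfr1 contributed 46.1% ± 3.42 of the summed receptor transcripts per kb in cKO and 44.3% ± 3.66 in WT (SD, n = 3 and 4). Fgfr2 contributed 18.6% ± 3.15 in cKO and 19.1% ± 1.57 in WT, Fgfr3 16.2% ± 1.34 and 16.6% ± 0.817, and Fgfr4 17.3% to 20.1% in the cKO libraries and 17.7% to 22.3% in the WT libraries. The group means of the shares of Fgfr1, Fgfr2 and Fgfr3 differed by less than 1 SD. The 4 ligands summed to 29.2%, 16.0% and 16.1% of the 4 receptors in cKO replicates 1 to 3, against 15.9%, 15.1%, 19.9% and 15.8% in WT replicates 1 to 4. The high value came from cKO replicate 1, where the 4 receptors were lowest and Fgf7, Fgf9 and Fgf18 highest. The ratio of Fgf10 to Fgfr2 per kb was 0.306, 0.192 and 0.227 in cKO replicates 1 to 3, against 0.202, 0.181, 0.230 and 0.180 in WT replicates 1 to 4, and the groups overlapped. These shares and ratios use the union of exons and depend on the length chosen. With the longest coding transcript, Fgfr2 contributed 24.5% in cKO and 25.2% in WT on average, and Fgfr4 11.1% and 11.8%. The summed ligands were then 9.44% to 18.1% of the receptors over all libraries, and Fgf10 over Fgfr2 was 0.084 to 0.143.

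The effectors Etv4 and Etv5 are closely related ETS factors. Etv5 had 41.0, 45.5 and 40.2 CPM in cKO replicates 1 to 3, against 38.5, 48.3, 38.3 and 42.0 CPM in WT replicates 1 to 4. All 3 cKO libraries lay within the WT range, and the fitted level in cKO was 101% of that in WT (95% interval 85.7% to 119%, log2 fold change 0.016, SE 0.105). Etv4 had 3.66, 4.97 and 6.07 CPM in cKO replicates 1 to 3, against 4.75, 4.94, 4.28 and 4.38 CPM in WT replicates 1 to 4. Its 4 WT libraries lay close together, and cKO replicate 1 was the lowest and cKO replicate 3 the highest of all 7. The fitted level in cKO was 107% of that in WT (95% interval 77.0% to 148%, log2 fold change 0.095, SE 0.209), and the log2 fold change was −0.0886 without cKO replicate 3. Etv5 was 6.81 ± 1.73 times as high as Etv4 per kb in cKO and 6.89 ± 0.575 times in WT (SD, n = 3 and 4).

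cKO replicate 1 was the highest or lowest library for 8 of the 10 members, and for 49.5% of all tested features. Over the 45 pairs of members, the exact permutation test of Pearson's r on log2 CPM gave no pair past a Benjamini-Hochberg adjusted p of 0.05, and the smallest was 0.261 for r and 0.566 for rho. The highest r was that of Fgfr2 and Fgfr4 (r = 0.86, exact p = 0.0177; Spearman's rho = 0.61, exact p = 0.167), which was 0.20 without the 2 libraries farthest from the median, cKO replicate 1 and WT replicate 2. Fgfr2 and Etv4 gave r = 0.84 (exact p = 0.0290, with rho = 0.75, exact p = 0.0663), and 0.85 without the same 2 libraries. For this pair r was 0.67 without cKO replicate 1 and 0.59 without both cKO replicate 1 and WT replicate 4. Fgfr3 and Fgfr4 gave r = 0.82 (exact p = 0.0187; rho = 0.79, exact p = 0.0480), and 0.48 without cKO replicate 1 and WT replicate 2. Their r was 0.73 without cKO replicate 1 and 0.79 without both cKO replicate 1 and WT replicate 4. Fgf18 ran against Etv4 (r = −0.80, exact p = 0.0284; rho = −0.68, exact p = 0.110), with −0.36 without cKO replicate 1 and WT replicate 3. The relation of Fgf7 with Fgfr4 was negative (r = −0.82, exact p = 0.0290; rho = −0.71, exact p = 0.0881) and was −0.57 without cKO replicate 1. All of these share depth, dissection and cell makeup within a library.

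**Figure D4:**
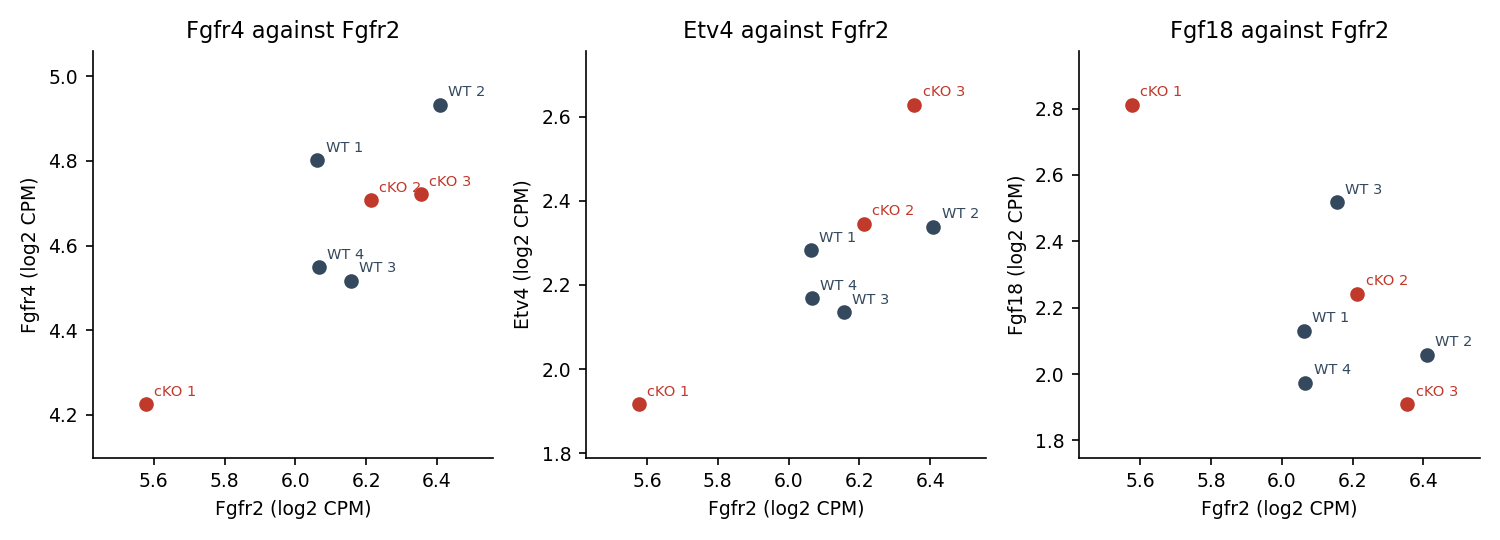
Fgfr4, Etv4 and Fgf18 against Fgfr2, each in log2 CPM, with 1 labelled point per library (cKO red, WT dark). cKO replicate 1 lies apart at low Fgfr2 in each panel.

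To set ligands and receptors beside the mesenchyme and epithelium of each library, each member was compared with the mean log2 CPM of 16 mesenchyme markers and 20 pancreatic epithelium markers. The mesenchyme level was 7.62, 7.62 and 7.67 in cKO replicates 1 to 3, against 7.63, 7.58, 7.85 and 7.58 in WT replicates 1 to 4 (difference −0.02, exact permutation p = 0.943). The epithelium level was 7.13, 7.40 and 7.25 in cKO, against 7.22, 7.36, 7.15 and 7.40 in WT (difference −0.02, exact permutation p = 0.886). Neither difference was larger than the spread between libraries. Of the ligands, Fgf10 had r = 0.53 with the mesenchyme level (exact p = 0.244; rho = 0.61, exact p = 0.167), Fgf18 0.35 (exact p = 0.421; rho = 0.18, exact p = 0.713), Fgf7 −0.12 (exact p = 0.758; rho = −0.32, exact p = 0.498) and Fgf9 −0.07 (exact p = 0.831; rho = −0.29, exact p = 0.556). Fgfr1 had r = 0.77 with it (exact p = 0.0383; rho = 0.75, exact p = 0.0663) and Etv5 −0.59 (exact p = 0.171; rho = −0.79, exact p = 0.0480). Without WT replicate 3 and cKO replicate 3, r was 0.26 for Fgf10, 0.55 for Fgf18, −0.04 for Fgf7, −0.18 for Fgf9, 0.24 for Fgfr1 and −0.49 for Etv5. The sign of r differed between the 4 ligands, and for Fgf7, Fgf9 and Fgf18 it changed when some single libraries were left out. The mesenchyme level was 7.58 to 7.67 in all libraries but WT replicate 3, so these values cannot decide whether the ligands follow it.

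With the epithelium level, r was 0.53 for Fgfr2 (exact p = 0.211; rho = 0.46, exact p = 0.302), 0.64 for Fgfr3 (exact p = 0.129; rho = 0.50, exact p = 0.267), 0.54 for Fgfr4 (exact p = 0.212; rho = 0.39, exact p = 0.396) and −0.08 for Fgfr1 (exact p = 0.858; rho = 0.07, exact p = 0.906). It was 0.71 for Etv5 (exact p = 0.0810; rho = 0.64, exact p = 0.139), 0.40 for Etv4 (exact p = 0.389; rho = 0.54, exact p = 0.236) and −0.69 for Fgf18 (exact p = 0.0883; rho = −0.64, exact p = 0.139). Without WT replicate 4 and cKO replicate 2, r was 0.79 for Fgfr2, 0.77 for Fgfr3, 0.89 for Fgfr4, −0.37 for Fgfr1, 0.78 for Etv5, 0.66 for Etv4 and −0.80 for Fgf18. Without cKO replicate 1 alone, it was 0.13 for Fgfr2, 0.47 for Fgfr3, 0.20 for Fgfr4 and −0.54 for Fgfr1. For Etv5, Etv4 and Fgf18 it was then 0.78, 0.03 and −0.50, so the values of Fgfr2, Fgfr4 and Etv4 rest largely on that library. None of the 20 relations with either level passed the Benjamini-Hochberg adjustment, with a smallest adjusted p of 0.542 for r and 0.663 for rho.

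Of 18 other genes of the FGF family 17 were in the table and 8 were tested, with 0 called, beside 0.00591% of all tested features. In the cKO fit 3 were higher and 5 lower (median −0.050 on the log2 scale). The 8 genes split into 4 higher and 4 lower without cKO replicate 1, and likewise without both cKO replicate 1 and WT replicate 4. Of the 8, only the 4 genes Fgf1, Fgf2, Fgf5 and Fgf16 encode secreted ligands, and 2 of these were higher and 2 lower. The other 4, Fgf11 to Fgf14, encode intracellular proteins that are not ligands, with 1 higher and 3 lower. The 9 that were not tested, Fgf3, Fgf4, Fgf6, Fgf8, Fgf15, Fgf17, Fgf21, Fgf22 and Fgf23, had 2 to 28 counts over all 7 libraries. Fgf1, a ligand of all FGF receptors, had 12.4 ± 0.710 CPM in cKO and 10.9 ± 1.39 CPM in WT (SD, n = 3 and 4; log2 fold change 0.19, SE 0.138). Fgf11, one of the intracellular relatives, had 10.2 ± 0.830 CPM in cKO and 11.9 ± 1.54 CPM in WT (log2 fold change −0.23, SE 0.144).

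Further along the pathway, 0 genes of 3 lists passed, beside 0.00591% of all tested features. Of 29 genes for co-receptors, heparan sulfate and FGF-binding proteins, 3 were higher and 26 lower in cKO (median −0.064 on the log2 scale), where 46.0% of all tested features were higher. Without cKO replicate 1 the same 29 split into 16 higher and 13 lower (median 0.0082), without WT replicate 4 into 3 and 26 (median −0.104), and without both into 12 and 17 (median −0.029). Ndst2, an enzyme that sulfates heparan sulfate, had 39.9 ± 4.42 CPM in cKO and 43.4 ± 1.72 CPM in WT (SD, n = 3 and 4), and Gpc6, a glypican, 27.1 ± 8.97 and 32.4 ± 3.57 CPM. Of 25 genes that relay the signal, 7 were higher and 18 lower (median −0.048), against 11 and 14 without cKO replicate 1, 9 and 16 without WT replicate 4, and 9 and 16 without both. The adaptor Gab2 had 28.1 ± 2.28 CPM in cKO and 32.2 ± 4.05 CPM in WT, and the Ras activator Sos2 58.7 ± 8.80 and 66.0 ± 6.59 CPM. Of 18 ERK feedback and other FGF-induced genes, 6 were higher and 12 lower (median −0.066), against 9 and 9 without cKO replicate 1, 6 and 12 without WT replicate 4, and 8 and 10 without both. The immediate early gene Egr1 had 20.6 ± 2.94 CPM in cKO and 23.7 ± 3.08 CPM in WT, and Spred1, an inhibitor of the Ras pathway, 73.5 ± 10.6 and 80.5 ± 8.34 CPM. Dusp6, the ERK phosphatase that FGF induces in many tissues, had a log2 fold change of −0.018 (95% interval −0.21 to 0.17), and was chosen after its values were seen.

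**Figure D5:**
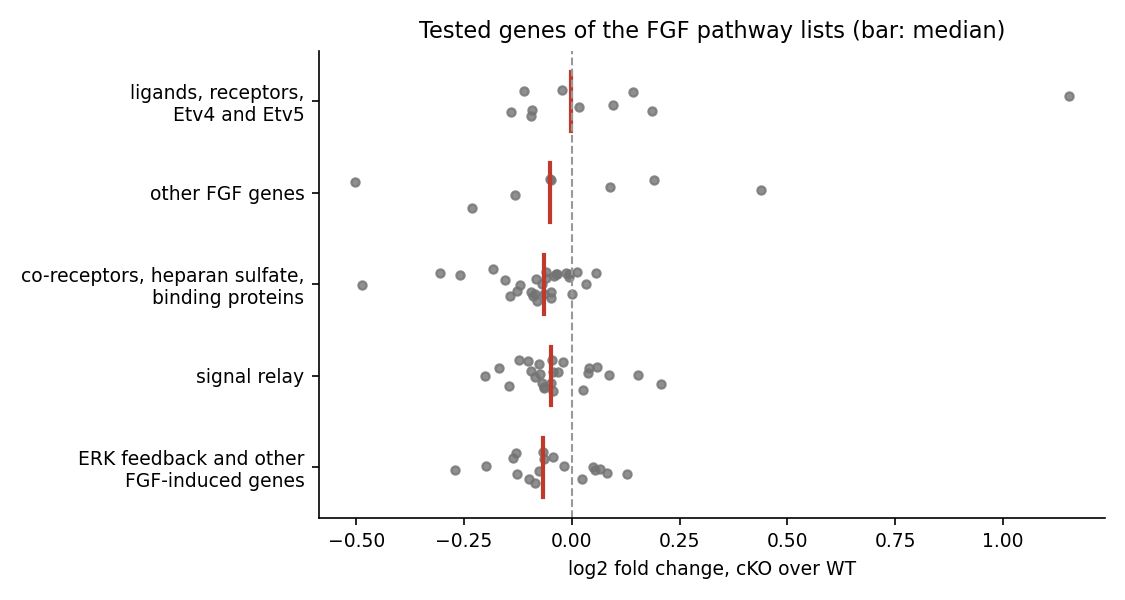
Log2 fold change, cKO over WT, of each tested gene in 5 groups of FGF pathway genes, 1 point per gene, with a bar at the median. The medians lie between −0.066 and −0.0029, and Fgf7 at 1.15 lies farthest from 0.

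The genes most like each member in their pattern over the 7 libraries were found by Pearson's r of log2 CPM among 10306 other tested genes with a mean of at least 10 CPM, or 10305 where the member is itself one of them. Picked as the best of so many, such values are high by choice and carry no test. They were Fuca1 and Cdc34 for Fgf7 (r = 0.984 and 0.983), Cept1 and Arxes2 for Fgf9 (0.995 and 0.950), Ubxn7 and As3mt for Fgf10 (0.971 and 0.969), and Scg5 and Tusc1 for Fgf18 (0.961 and 0.948). For the receptors they were Irf2bpl and Fam110b for Fgfr1 (r = 0.985 and 0.970), Xpo7 and Gabpb2 for Fgfr2 (0.995 and 0.994), Smn1 and Zfp800 for Fgfr3 (0.980 and 0.970), and Smug1 and Dhx33 for Fgfr4 (0.987 and 0.982). For the effectors they were Zfp697 and Mospd2 for Etv4 (r = 0.973 and 0.972) and Dhx32 and Pabpc4 for Etv5 (0.983 and 0.979).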

How the data were processed

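Polyadenylated RNA from whole E15.5 pancreas was sequenced in 3 cKO and 4 WT libraries. The values the authors deposited are whole-number counts of reads for each feature, without normalization. Per the submitters' processing notes, HISAT2, StringTie and featureCounts are listed with the build mm39, in roles that are not stated. The library steps, per the labels' protocols, include none that marks the strand, so reads of overlapping genes on opposite strands cannot be told apart. Fgf10, Fgfr1 and Fgfr3 share 123, 164 and 998 exonic bases with opposite-strand genes that have 9 to 34 counts over all libraries, and Fgfr2 (8381 counts) shares 314 with Ctbp2, a gene on the same strand with 11358 counts.

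Symbols and exonic lengths came from GENCODE M21 on GRCm38, another build, so the features were given no coordinates. Promoter windows came from RefSeq on GRCm38.p6. Features were filtered with filterByExpr, scaled with TMM factors (0.952 to 1.04) and tested with edgeR 4.0.16 (glmQLFit with robust estimation, glmQLFTest, group as the only term) in R 4.3.3, with p-values adjusted over 16910 features. CPM uses TMM-scaled totals. For log2 CPM the prior count was 2 (0.5 as an alternative for relations). A value of 3 counts corresponds to 0.162 to 0.212 CPM. SEs come from the coefficient and the F statistic. The fit was tested on simulated data. Single values were tested by exact 2-sided permutation over 35 divisions, whose smallest p is 0.0286. Alternatives were 2 other scalings, 2 filters, DESeq2 1.42.0, limma-voom (limma 3.58.1), estimation that is not robust, a replicate block, and libraries left out. The pathway lists without cKO replicate 1, WT replicate 4 or both were added after seeing the data.

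The members, lists and tests were chosen with earlier results of these data known. Named beside the members are 2610035D17Rik, the 2 genes of each pathway list with the smallest p, and the 2 genes most like each member (mean of at least 10 CPM, predicted-gene and clone names left out). The column of WT replicate 4 carries another numeral in its header than the rest, with a meaning not given in the sources used here, and the fits without WT replicate 4 compare the columns that share a numeral. Counts of any 2 libraries differed beyond sampling noise, at a chi-square of 11.1 to 50.8 per degree of freedom.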

Additional observations from a re-analysis of the deposited data

Results flagged for a closer look

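Over 34 sets of 4 WT values (the members, their ratios and shares, and the marker levels), 5 had a library far from the other 3, where chance gives about 1 in 20. The Fgfr1 to Fgfr2 ratio per kb was 1.85 in WT replicate 2, against 2.48 to 2.53 in the other WT libraries. In WT replicate 3 the Fgfr3 share of receptor transcripts was 15.3%, against 16.8% and above in the other WT libraries, and the Fgf18 to Fgfr3 ratio was 0.848, against 0.520 to 0.575. The 4 ligands summed to 19.9% of the receptors in WT replicate 3, against 15.1% to 15.9% in the others. The mean log2 CPM of smooth muscle markers was 3.12 in WT replicate 2, against 3.78 to 3.85 in the others. These sets share genes and libraries, so they are not independent.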

How the results depend on the processing

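In all 16 alternatives no member was called (0 of 10, and 0 of 9 under the filter of 1 CPM, which drops Fgf7). The number of features called over all genes, 1 with the reported settings, was 0 under scaling by library totals or DESeq2 size factors, under a filter of 1 CPM in 3 libraries and without robust estimation, 4 with no filter, and 13 with DESeq2 or with the replicate block, and it was 0 to 3 when single libraries were left out. Deviations from the group means of same-numbered libraries had correlations of 0.284, 0.419 and 0.06. The labels name no pairing, and whether same-numbered libraries share more than a number was not tested. cKO replicates 1 and 2 correlated best with the WT library of their own number and cKO replicate 3 did not. Fgf7 had a log2 fold change of 1.47 with the block.

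Of 159 alternative fold changes of members, 13 changed sign, none of them called, and the cause was not tested. Without both WT replicate 4 and cKO replicate 1 the log2 fold change was −0.169 for Fgf18, 0.0106 for Fgfr1 and 0.0711 for Fgfr2. Leaving out single libraries gave −0.333 to 0.146 for Fgf9, −0.101 to 0.376 for Fgf18, −0.0553 to 0.0192 for Fgfr1, −0.25 to 0.111 for Fgfr2, −0.225 to 0.00843 for Fgfr4, −0.0886 to 0.272 for Etv4 and −0.0465 to 0.0944 for Etv5. Those of Fgf7 (0.631 to 1.53), Fgf10 (0.00793 to 0.213) and Fgfr3 (−0.18 to −0.0629) kept their sign.

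Of 200 alternative relations with marker levels 14 changed sign. With library totals r with mesenchyme was 0.02 for Fgf9, 0.03 for Fgfr3, 0.15 for Fgfr4 and 0.25 for Etv4, and r with epithelium 0.06 for Fgfr1, while that of Fgf18 passed an unadjusted p of 0.05 at −0.82. With DESeq2 size factors r of Etv4 with mesenchyme was 0.01. Leaving out single libraries, r with mesenchyme was −0.26 to 0.10 for Fgf7, −0.52 to 0.01 for Fgf9, −0.03 to 0.76 for Fgf18, −0.09 to 0.27 for Fgfr2 and −0.22 to 0.53 for Etv4, and r with epithelium −0.41 to 0.40 for Fgf7 and −0.54 to 0.45 for Fgfr1. The 20 alternative marker level differences moved by less than the spread between libraries. Depth limits Fgf7 most, at 5 to 34 counts.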

Other observations

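Among co-receptors of the pathway, the neural adhesion molecule L1cam had the highest coefficient of variation of CPM over the 7 libraries. It had 58.8, 9.22 and 12.5 CPM in cKO replicates 1 to 3, against 60.9, 8.10, 52.1 and 28.9 CPM in WT replicates 1 to 4. The libraries high in L1cam were those high in 14 neuron and Schwann cell markers, whose mean log2 CPM was 5.27, 3.14 and 3.38 in cKO replicates 1 to 3, against 5.15, 2.82, 4.90 and 4.20 in WT replicates 1 to 4. The highest library of each group was the same for both, and the groups overlapped for both. The glypican Gpc3 had 757 CPM in cKO and 775 CPM in WT on average and a log2 fold change of −0.034 (95% interval −0.20 to 0.14). These genes were chosen after their values were seen.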
